A study of Mus musculus with 6 samples.

Results

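A set of 10 genes was followed in RNA-seq of J774 cells. Of these, 5 govern the handling of lipid peroxides in ferroptosis (Gpx4, Acsl4, Aifm2, Gch1 and Dhodh). The other 5 are further selenoprotein genes (Selenop, Gpx1, Selenow, Msrb1 and Sephs2). Gpx4 belongs to both classes. All 10 members, chosen by gene symbol in GENCODE M21 (GRCm38), were found among the 55487 Ensembl gene identifiers of the files. J774 is a mouse macrophage line (clone E in the study's methods), and the cells were transfected with control siRNA or with NCOA4 siRNA, with 3 biological replicates of each and no other treatment given in the labels. The comparison asks how the loss of NCOA4, the receptor that delivers ferritin to autophagy, alters macrophage transcripts. Knockdown came from a small interfering RNA delivered by liposomes into an established line, so the cells kept part of the transcript. How long after transfection this RNA was taken is not given in the sources used here.

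Ferroptosis is a form of cell death driven by iron-dependent peroxidation of polyunsaturated phospholipids. GPX4 reduces the peroxides within membranes, ACSL4 supplies the polyunsaturated acyl chains that are peroxidised, and AIFM2, DHODH and GCH1 maintain radical-trapping cofactors. GPX4 and the other selenoproteins carry selenocysteine, an amino acid inserted at a UGA codon that would otherwise end translation. A macrophage handles large amounts of iron from ingested red cells, and SELENOP is the secreted protein that carries selenium between cells.

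The selenocysteine codon defines the class, so its surroundings are printed for the 6 selenoprotein members from GENCODE M21 transcripts. Each stretch reads 5′ to 3′ on the coding strand and holds 12 bases on either side of the first selenocysteine codon, which stands in capitals as TGA.
Selenop (codon 59): cttcaagccagcTGAtacttgtgtctt
Gpx1 (codon 47): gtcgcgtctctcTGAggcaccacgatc
Gpx4 (codon 73): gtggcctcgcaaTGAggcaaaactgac
Selenow (codon 13): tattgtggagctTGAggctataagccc
Msrb1 (codon 95): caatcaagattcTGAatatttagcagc
Sephs2 (codon 63): ggcatgaagggcTGAggctgcaaggtc
In 4 of these 6 transcripts the codon after the TGA was GGC, which encodes glycine. Selenop stands apart in sequence, because its reading frame holds 10 selenocysteine codons and each of the other members holds 1. The last 30 bases of its coding sequence hold selenocysteine codons 9 and 10 (codons 375 and 377), in capitals, ahead of the true stop codon TAA.
Selenop, end of the reading frame: accaggaagTGAaaaTGAcattcaaactaa

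**Figure D1:**
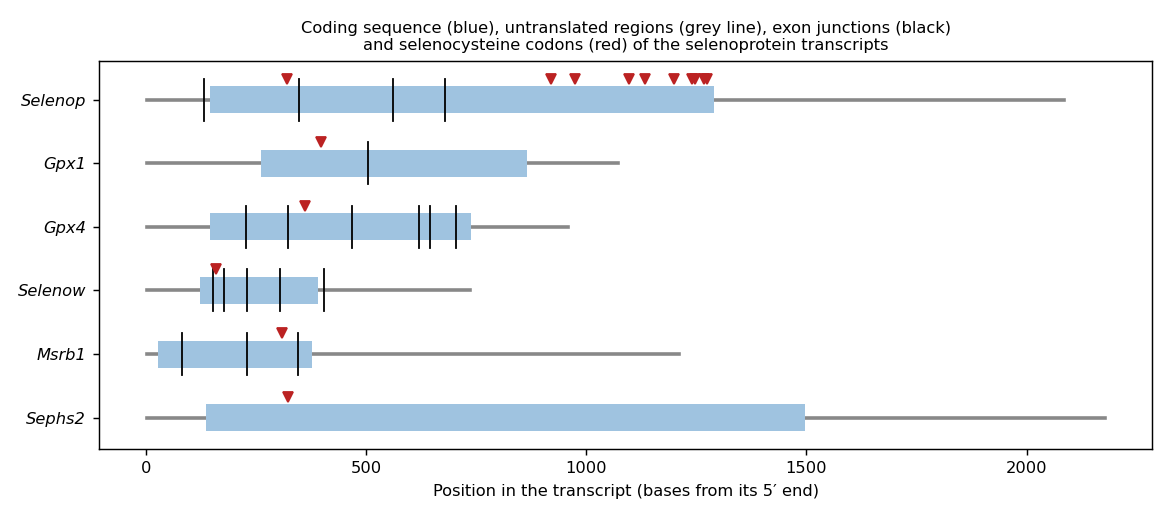
Layout of the 6 selenoprotein transcripts drawn to scale, with position in bases from the 5′ end on the x axis. Blue bars are coding sequence, grey lines untranslated regions, black ticks exon junctions and red triangles selenocysteine codons, of which Selenop has 10 and every other transcript 1, and Sephs2 has no junction.

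Libraries held between 15502131 and 18282107 reads on the genes whose reads could be rebuilt from TPM, and between 16924 and 17336 genes above 0, so depth did not separate the groups. Ncoa4 fell from 21.6 ± 1.57 to 9.04 ± 0.533 TPM (SD, n = 3 each), with the 2 groups apart, a change past an adjusted p of 0.05 and a fold of 1.5 by limma. Control replicate 1 stood apart, with a chi-square per gene of 11.6 and 11.7 against control replicates 2 and 3, which differed from each other by 3.60, where counting noise gives 1. Its mitochondrial transcripts made up 12.9% of TPM against 9.36% to 10.2% in the other 5 libraries. Values without it are therefore given where they alter a call. All 10 macrophage marker genes were expressed, with a summed level of 8650 to 8841 TPM with control siRNA and 8981 to 9083 TPM with NCOA4 siRNA. Of 12 markers of other cell types, 8 were listed at 0 in every library, and the 12 together reached at most 0.665 TPM.

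The deposited unit was TPM, which corrects the reads of a gene for its length and sets the total of each library to 1000000. The length that gave whole reads was that of all exons of a gene joined, which can exceed the transcript. It was 1724 bases for Gpx4 against 959 in its GENCODE transcript, and 1258 against 1211 for Msrb1. Levels of the same gene can therefore be compared between groups, but levels of different genes only roughly. Expression was compared by limma, on log2(TPM + 0.5), over the 13829 genes whose TPM averaged 0.5 or more, a filter that all 10 members passed, and p-values were adjusted over all 13829 genes by the Benjamini-Hochberg method. All fold changes use that scale. A gene was taken to have risen or fallen at an adjusted p under 0.05, which 5.42% of the genes tested reached, 3.11% with a rise and 2.31% with a fall. The fold change threshold of 1.5 is named where a gene also passed it, as 1.18% of the genes did (0.861% upward and 0.318% downward). All adjusted p-values below come from this limma fit unless another tool is named.

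Selenop, the selenium carrier, rose about 3 times in level with NCOA4 siRNA, and it was the only member of the 10 to pass the test. With control siRNA, replicates 1 to 3 had 24.5, 22.8 and 24.9 TPM. With NCOA4 siRNA they had 68.8, 70.5 and 69.2 TPM. The reads behind them numbered 399, 392 and 369, then 1136, 1092 and 1186. The replicates of each group lay close together and the groups were far apart. The mean rose from 24.04 ± 1.13 to 69.5 ± 0.903 TPM (SD, n = 3 each), to 289% of control, and the log2 fold change was 1.51 (SE 0.0483, limma, adjusted p = 0.000155). Its unadjusted p of 1.12e-08 ranked 1 among the 13829 genes tested, ahead of that of Ncoa4, and its fold change ranked 50 among them from the highest. The 95% interval of the fold change was 2.64 to 3.09, above the threshold of 1.5. By an exact permutation of TPM over the libraries (two-sided) p was 0.1, below which 3 against 3 cannot go.

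The rise of Selenop held under every alternative fitted, with a log2 fold change of 1.46 to 1.54 and an adjusted p of 1.16e-08 to 0.0165 by limma. With any library left out the log2 fold change was 1.48 to 1.54. Selenop lies at chr15:3268547-3280508 (+). Its exons share 439 of 2842 bases with Ccdc152 on the opposite strand, a gene listed at 0 in all 6 libraries. Of the macrophage markers, Adgre1, Csf1r, Fcgr1 and Mertk rose and Cd14 fell in the same comparison, with log2 fold changes between -0.27 and 0.61 (Adgre1 and Fcgr1 also passed the fold threshold), and their part in the Selenop result was not tested. In a culture, a change in the number of cells that make a transcript and a change per cell cannot be told apart from total RNA.

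**Figure D2:**
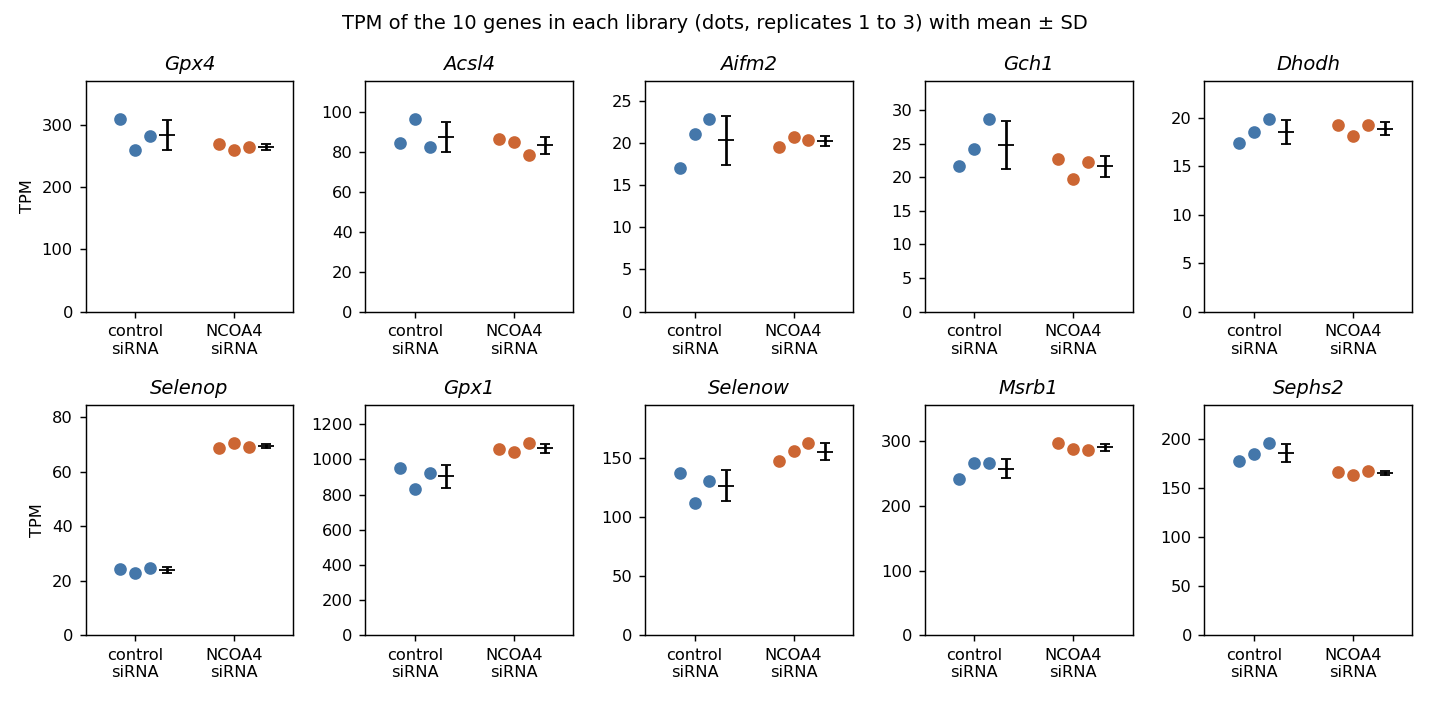
TPM of the 10 genes in each library, with each y axis starting at 0. Dots are replicates 1 to 3 of control siRNA (blue) and NCOA4 siRNA (orange) and black bars are mean ± SD, and the NCOA4 siRNA dots of Selenop at 68.8 to 70.5 TPM sit far above its control dots at 22.8 to 24.9 TPM.

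**Figure D3:**
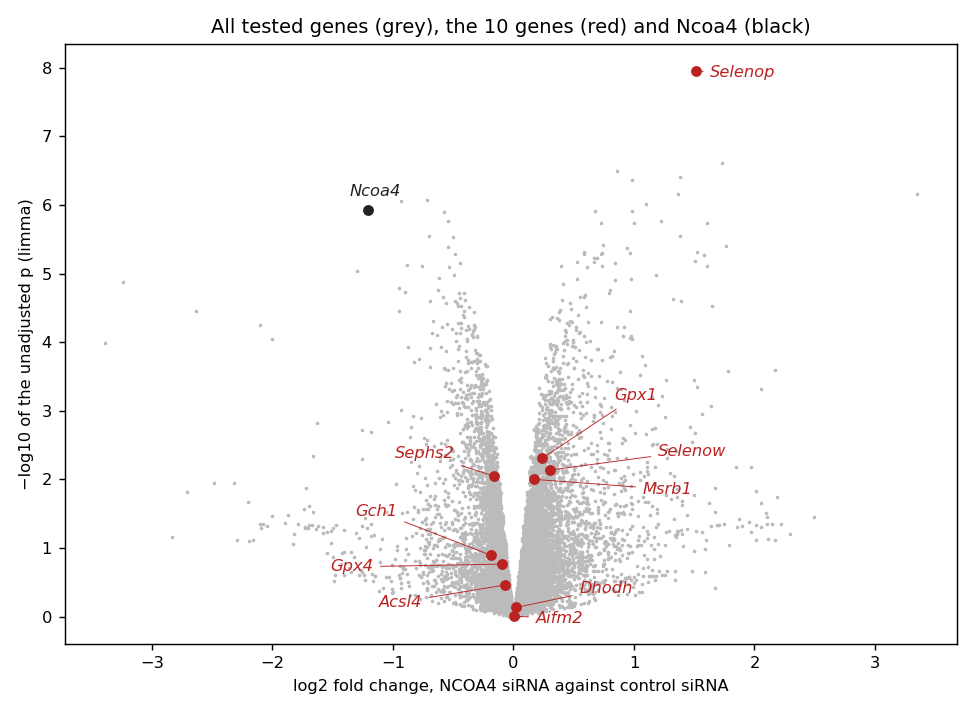
Log2 fold change (x axis) and -log10 of the unadjusted limma p (y axis) of all 13829 tested genes in grey, the 10 members in red and Ncoa4 in black. Selenop is the highest point, and the other 9 members lie within the body of the plot with log2 fold changes of -0.19 to 0.30.

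None of the 5 lipid peroxide genes passed the test, and in each of them the groups overlapped. Gpx4, the glutathione peroxidase that acts on phospholipid hydroperoxides, had 308, 259 and 281 TPM with control siRNA and 269, 259 and 263 TPM with NCOA4 siRNA. The highest value belonged to control replicate 1. Gpx4 lies at chr10:80047166-80056439 (+). Its log2 fold change was -0.10 with a 95% interval of -0.25 to 0.05 (limma, adjusted p = 0.430), which leaves room for a level of 0.841 to 1.04 times control. Leaving out control replicate 1 gave -0.03 and leaving out control replicate 2 gave -0.16 on the log2 scale.

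The Gpx4 value is uncertain for another reason. Gpx4-ps2, a transcribed processed pseudogene on chromosome 10 from 45875291 to 45876086, matched the Gpx4 transcript at 99.7% of 762 aligned bases, so reads could have been split between them. It held 463, 382 and 364 reads with control siRNA and 330, 320 and 339 with NCOA4 siRNA, against 2432 to 3050 reads on Gpx4. Its log2 fold change was -0.30 (limma, adjusted p = 0.1001), with the groups apart. With the reads of both counted together on the length of Gpx4, a choice made after the values were seen, the log2 fold change was -0.12 and the adjusted p was 0.341 from limma. For Gpx4 alone the adjusted p ran from 0.159 to 0.698 across alternatives.

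Acsl4, which activates arachidonic and adrenic acid for insertion into phospholipids, had 84.3, 96.2 and 82.5 TPM with control siRNA and 86.5, 85.0 and 78.3 TPM with NCOA4 siRNA. Acsl4 lies at chrX:142317993-142390535 (-). The log2 fold change was -0.07, with a 95% interval of -0.24 to 0.10 (limma, adjusted p = 0.610). With control replicate 2 left out it was -0.003, and with NCOA4 siRNA replicate 3 left out -0.03. The ratio of Acsl4 to Gpx4 in TPM averaged 0.313 ± 0.0514 in control libraries and 0.316 ± 0.0164 after knockdown (SD, n = 3 each; p = 0.9, exact permutation, two-sided). Among the libraries the ratio ran from 0.274 to 0.371, both extremes in control libraries.

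The 3 genes of the radical-trapping systems had group means of 18.6 to 24.8 TPM, on joined exon lengths that exceed their transcripts. These were 6326 bases against 2039 for Dhodh, 6251 against 2775 for Gch1 and 4121 against 3086 for Aifm2. Their TPM would be higher on transcript lengths, and each had 403 to 932 reads per library. Aifm2, which encodes the FSP1 oxidoreductase that reduces coenzyme Q, had 17.03, 21.1 and 22.8 TPM with control siRNA and 19.5, 20.7 and 20.3 TPM with NCOA4 siRNA. Dhodh, the mitochondrial enzyme of pyrimidine synthesis that also reduces coenzyme Q, had 17.4, 18.5 and 19.8 TPM and then 19.3, 18.1 and 19.2 TPM. Aifm2 lies at chr10:61715263-61739260 (+) and Dhodh at chr8:109591343-109608673 (-). For both, the NCOA4 siRNA values lay within the range of the control values. Their log2 fold changes were close to 0, with 95% intervals of -0.25 to 0.25 for Aifm2 and -0.13 to 0.18 for Dhodh, and the sign of each turned under other scalings. Gch1, the first enzyme of tetrahydrobiopterin synthesis, had 21.6, 24.2 and 28.6 TPM with control siRNA and 22.8, 19.8 and 22.3 TPM with NCOA4 siRNA. Gch1 lies at chr14:47153895-47189413 (-). Control replicate 3 was the highest, and the groups overlapped. Its log2 fold change of -0.19 had a 95% interval of -0.44 to 0.07 (limma, adjusted p = 0.369). It was -0.08 without control replicate 3 and -0.28 without control replicate 1.

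The selenoprotein members other than Selenop differed by small amounts between the groups, and none passed the test. In 5 of the 10 members the groups did not overlap, against 28.4% of all tested genes, and all 5 were selenoproteins: Selenop, Gpx1, Selenow and Msrb1 with higher and Sephs2 with lower values under NCOA4 siRNA. Higher values without overlap were seen in 16.6% of all tested genes and lower ones in 11.8%. All 5 also had an unadjusted p under 0.05 by limma, as did 21.6% of the genes tested. Of the 12 tested selenoproteins outside the members, 3 (25.0%) had groups without overlap, and 3 had an unadjusted p under 0.05 by limma. The higher share was thus found in the chosen members and not in the other selenoproteins.

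Gpx1, the cytosolic glutathione peroxidase that reduces hydrogen peroxide, was the most abundant member. Its TPM was 953, 832 and 924 with control siRNA and 1059, 1041 and 1092 with NCOA4 siRNA. The lowest NCOA4 siRNA library lay above the highest control library. Gpx1 lies at chr9:108338903-108340343 (+). The log2 fold change was 0.24 (95% interval 0.10 to 0.38, limma, adjusted p = 0.0697). The adjusted p was 0.0361 without control replicate 1 and 0.00749 with limma-voom on rebuilt reads, and ran from 0.00749 to 0.221 across alternatives.

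Selenow, a small selenoprotein of the thioredoxin-like fold, had 137, 112 and 130 TPM with control siRNA and 147, 156 and 162 TPM with NCOA4 siRNA. Control replicate 2 was the lowest. Selenow lies at chr7:15917208-15922402 (-). The log2 fold change was 0.30 (95% interval 0.11 to 0.49, limma, adjusted p = 0.0858). Its adjusted p was 0.0245 with limma-voom, in a range of 0.0245 to 0.250.

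Msrb1, which reduces oxidised methionine in proteins including actin, had 241, 266 and 266 TPM with control siRNA and 297, 289 and 287 TPM with NCOA4 siRNA. Control replicate 1 was the lowest. Msrb1 lies at chr17:24736642-24742778 (+). The log2 fold change was 0.17 (95% interval 0.06 to 0.29, limma, adjusted p = 0.101). The adjusted p was 0.0320 after quantile normalization and 0.0306 with limma-voom, in a range of 0.0306 to 0.299.

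Sephs2 makes selenophosphate, the selenium donor for selenocysteine, and is itself a selenoprotein. It had 177, 185 and 196 TPM with control siRNA and 167, 164 and 167 TPM with NCOA4 siRNA, and its log2 fold change was -0.16 (95% interval -0.27 to -0.06, limma, adjusted p = 0.0953). Sephs2 lies at chr7:127271879-127274055 (-). Its direction was opposite to that of Gpx1, Selenow and Msrb1. The adjusted p was 0.0361 without control replicate 1, 0.0252 after median centring and 0.0420 without mitochondrial genes, in a range of 0.0252 to 0.275. Gm44729, on the opposite strand, shares 792 of the 2177 exon bases of Sephs2 and had at most 0.280 TPM.

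A ratio within a library does not depend on its scaling, though its size depends on the gene lengths used. Several such ratios were computed, none of them among the planned results. That of Acsl4 to Gpx4 is given above, and that of Gpx1 to Gpx4 was chosen after the values were seen. The ratio of Gpx1 to Gpx4 in TPM was 3.09, 3.21 and 3.29 in control libraries and 3.94, 4.02 and 4.15 after knockdown. The groups did not overlap, which is given as a description.

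On the joined exon lengths, the order of the members by mean TPM differed between the groups in 2 places. With control siRNA it was Gpx1 at 903 TPM, Gpx4 at 283, Msrb1 at 258, Sephs2 at 186, Selenow at 126, Acsl4 at 87.7, Gch1 at 24.8, Selenop at 24.04, Aifm2 at 20.3 and Dhodh at 18.6 (means of 3 libraries). The ranges of Gpx4 and Msrb1 overlapped, as did those of each neighbouring pair from Gch1 down to Dhodh. With NCOA4 siRNA, Msrb1 at 291 TPM stood above Gpx4 at 264 TPM, and Selenop, at 69.5 TPM, stood above Gch1 at 21.6 TPM, in both cases without overlap. With the reads of Gpx4-ps2 counted to Gpx4, its level with NCOA4 siRNA was 293 to 302 TPM. That overlapped Msrb1 at 287 to 297 TPM, so that change of order rests on Gpx4 alone. It also rests on the joined exon lengths, 1724 bases for Gpx4 and 1258 for Msrb1. Gpx4 had more reads than Msrb1 in every library, with NCOA4 siRNA 2432 to 2739 against 1977 to 2177. Its transcript is also the shorter, at 959 bases against 1211. With these reads set on transcript lengths, Gpx4 would stand above Msrb1 in both groups, without a change of order. The rest of the order was not computed on transcript lengths. Gch1 and Aifm2 still overlapped.

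Of the 24 mouse selenoprotein genes, 20 had a value above 0 in some library and 18 passed the filter. Gpx2, Gpx3, Dio1 and Dio3 were listed at 0 in all 6 libraries, and Dio2 and Selenov were each above 0 in 1 library. The summed level of the 24 genes averaged 2680 ± 88.6 TPM in control libraries and 2960 ± 39.9 TPM after knockdown (SD, n = 3 each), with the groups apart. On the joined exon lengths, on which all these shares depend, Gpx1 made up 33.7% ± 1.93 and 35.9% ± 0.493 of this sum. The share of Selenop was 0.897% ± 0.0215 in control libraries and 2.35% ± 0.0635 after knockdown, while that of Gpx4 was 10.6% ± 0.906 and 8.91% ± 0.112 and that of Sephs2 was 6.94% ± 0.250 and 5.60% ± 0.0115. The 6 selenoprotein members together made up 64.4% to 69.1% of the sum in every library. Without Gpx1, which did not pass the test, the sum averaged 1777 ± 70.9 TPM in control libraries and 1896 ± 20.6 TPM after knockdown. A share also falls where the sum rises, so the lower share of Gpx4 is not by itself a fall in its level.

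**Figure D4:**
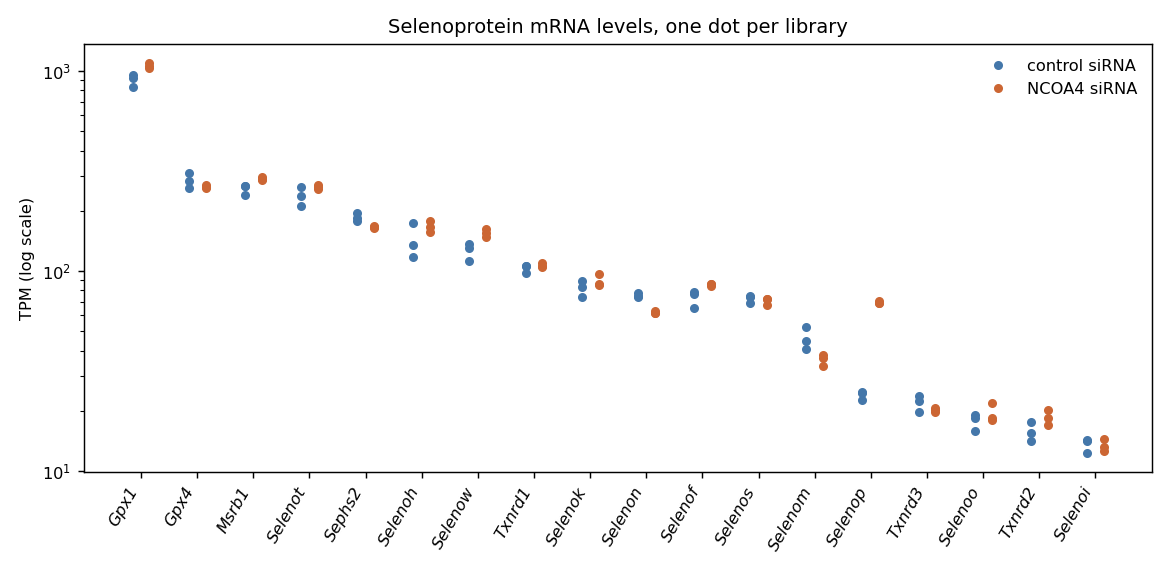
TPM on a log scale of the 18 selenoproteins that passed the filter, ordered by control mean, with 1 dot per library in blue (control siRNA) and orange (NCOA4 siRNA). Selenop was 14th from the top with control siRNA and 12th with NCOA4 siRNA, and its groups are the widest apart.

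Among the 18 tested selenoproteins, 2 passed the test (11 had a positive and 7 a negative log2 fold change, with a median of 0.13 against 0.03 over all genes). Beside Selenop, the other was Selenon, an endoplasmic reticulum protein linked to calcium handling, which fell. Its selenocysteine codon is number 428, shown in capitals because this transcript moved against Selenop.
Selenon (codon 428): gaccagtcctgcTGAggttccgggcgg
Selenon had 74.3, 74.8 and 77.3 TPM with control siRNA and 62.9, 61.5 and 61.8 TPM with NCOA4 siRNA, and the groups did not overlap. The log2 fold change was -0.28 (SE 0.0375, limma, adjusted p = 0.0116), and its adjusted p was 0.0612, 0.0731 or 0.0679 without NCOA4 siRNA replicate 1, 2 or 3, in a range of 0.00249 to 0.0731. The other abundant selenoproteins were Selenot, Selenoh and Txnrd1. Selenot, of the endoplasmic reticulum, had 237 ± 24.6 and 262 ± 5.96 TPM, Selenoh, a nuclear protein, had 142 ± 28.5 and 167 ± 10.1 TPM, and Txnrd1, the cytosolic thioredoxin reductase, had 103 ± 4.64 and 107 ± 2.70 TPM (SD, n = 3 each, control siRNA first). In all 3 the groups overlapped, with adjusted p-values of 0.303, 0.336 and 0.560 by limma.

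**Figure D5:**
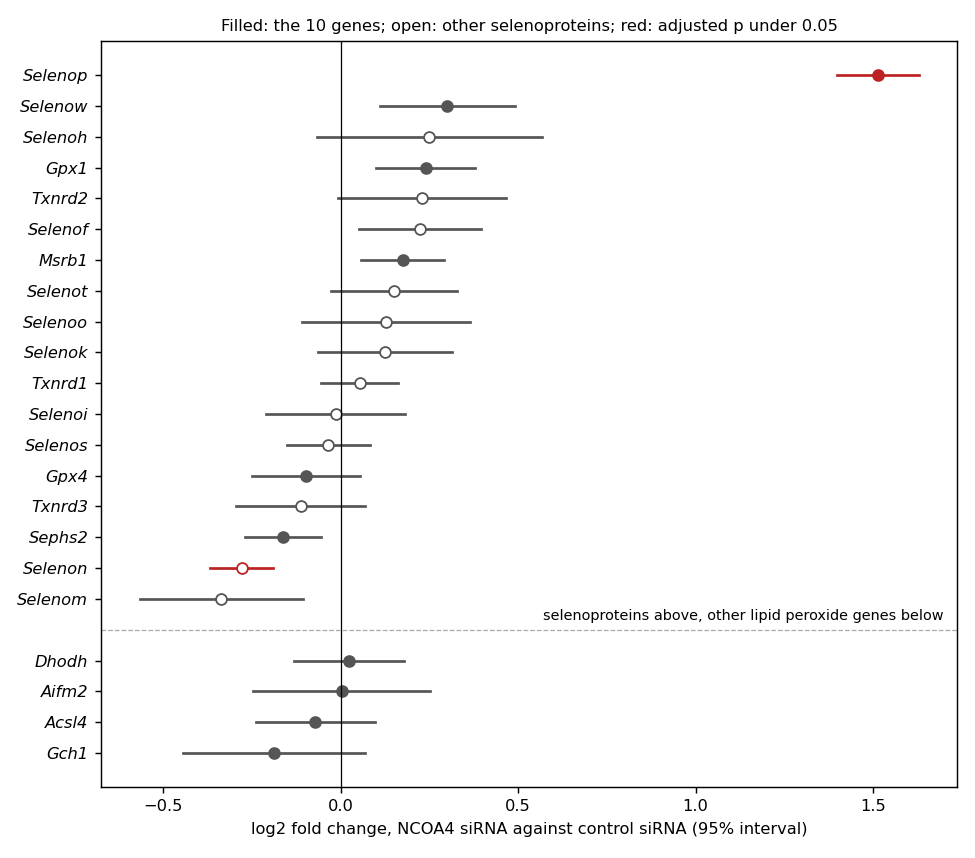
Log2 fold change with its 95% interval (limma) for the 18 tested selenoproteins and, below the dashed line, the 4 members that are not selenoproteins. Filled points are members, open points other selenoproteins and red marks an adjusted p under 0.05, reached by Selenop at 1.51 and Selenon at -0.28.

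An ordinary stop codon ahead of an exon junction can mark a transcript for decay. The layout of the selenocysteine codon is set beside the changes as a description only. This split was not among the planned results, and decay was not tested. In 11 of the 18 tested selenoproteins an exon junction lay after the first selenocysteine codon, by 342 bases to the last junction in Gpx4, 357 in Selenop, 243 in Selenow, 105 in Gpx1 and 34 in Msrb1. Their median log2 fold change was 0.17, with 8 positive and 3 negative. The split took a junction at any distance, down to 5 bases in Selenok. In the other 7, among them Sephs2, which has a single exon, the median was -0.01, with 3 positive and 4 negative. Both Selenop and Selenon, with changes in opposite directions, belong to the 11, and the medians are given without a test.

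All 12 genes of a list around the making and insertion of selenocysteine, which also holds Lrp8 and Scly, were tested and 1 passed. The median log2 fold change over the list was 0.03. Sars, the seryl-tRNA synthetase that charges the selenocysteine tRNA with serine as well as the ordinary serine tRNAs, fell from 171 ± 2.61 to 151 ± 1.14 TPM (mean ± SD, n = 3 each), or -0.18 on the log2 scale (limma, adjusted p = 0.0282). Its adjusted p was 0.0540 to 0.130 with any library but control replicate 1 left out, and ran from 0.0129 to 0.130 across alternatives. Eefsec and Secisbp2, which bring selenocysteine to the ribosome, and Lrp8, a receptor for SELENOP, were among the 11 that did not pass.

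In the list for cystine and glutathione supply, 11 of 12 genes were tested and 1 passed, and the median log2 fold change was -0.11. Chac1, which degrades glutathione, fell from 11.1 ± 0.976 to 6.24 ± 0.725 TPM (mean ± SD, n = 3 each), or -0.78 on the log2 scale (limma, adjusted p = 0.0124). It also passed the fold threshold of 1.5, with a level 0.581 times that of control on the fitted scale. Chac1 rested on few reads, 111, 99 and 98 with control siRNA and 66, 49 and 62 with NCOA4 siRNA. Its adjusted p was 0.0560 or 0.0618 without NCOA4 siRNA replicate 2 or 3, in a range of 0.00443 to 0.0618. Slc7a11, the cystine importer, had 2.49 ± 0.342 and 1.95 ± 0.0822 TPM (log2 fold change -0.28, adjusted p = 0.314 by the same test).

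Of 24 genes for the lipid substrates of peroxidation, 22 were tested and 2 passed, in opposite directions, with a median of -0.02. Por, the cytochrome P450 reductase that can drive lipid peroxidation, fell from 354 ± 21.3 to 281 ± 8.39 TPM, or -0.33 on the log2 scale (limma, adjusted p = 0.0196). Agpat3, an acyltransferase of phospholipid synthesis, rose from 24.3 ± 1.05 to 28.7 ± 0.591 TPM (mean ± SD, n = 3 each), or 0.24 on the log2 scale (adjusted p = 0.0470 by the same test). Without NCOA4 siRNA replicate 1, 2 or 3 the adjusted p of Por was 0.1003, 0.0986 or 0.0682 and that of Agpat3 was 0.162, 0.146 or 0.173. Without control replicate 3 it was 0.0552 for Por and 0.115 for Agpat3, and without control replicate 1 it was 0.0758 for Agpat3. Over all alternatives it was 0.000914 to 0.1003 for Por and 0.00694 to 0.173 for Agpat3.

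Of 20 genes for radical-trapping cofactors, among them Aifm2, Dhodh and Gch1, 19 were tested and none of these 3 passed. The median over the list was -0.01 on the log2 scale. Of 18 peroxidases and reductases that use cysteine in place of selenocysteine or another centre, 14 were tested with limma and 0 passed, 0 had an unadjusted p under 0.05 and the median was -0.02. The smallest adjusted p-values there belonged to Sod1 at 0.263 and Txn2 at 0.306 by limma.

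Genes whose pattern over the 6 libraries was most like that of Selenop were sought among the 10038 genes whose TPM averaged 5 or more. The nearest were AC149090.1, Tcn2 and Tsc22d2, with Pearson r of 0.997, 0.995 and 0.995 on log2(TPM + 0.5). Tcn2, the plasma carrier of vitamin B12, had 38.9 ± 1.92 and 64.8 ± 1.56 TPM, whereas Tsc22d2 had 11.6 ± 0.0821 and 13.2 ± 0.0717 TPM (SD, n = 3 each, control siRNA first). For Gpx1, which had the next smallest adjusted p among the members, the nearest were Pcyt2, Nmi and Apoe, with r of 0.9995, 0.9975 and 0.989. These correlations are over 6 libraries that share the difference between the groups, and are given as a description.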

How the data were processed

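Total RNA of 3 control siRNA and 3 NCOA4 siRNA cultures was sequenced from stranded poly(A) libraries, and the authors deposited TPM per Ensembl gene, each library scaled on its own. The submitters' processing notes name Trimmomatic 0.33, FastQC, HISAT2 2.1.0, featureCounts, edgeR and mm10. The role of each is not given there, nor the strand setting of the counting. Of 55487 identifiers, 55227 were named from GENCODE M21 (GRCm38, the assembly of mm10).

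Reads were rebuilt from TPM and exon length, and 98.5% of the 21096 genes above 0 gave whole reads in all 6 libraries, within 0.02 of a read or a relative 1e-05. Rebuilt reads gave depth, the read numbers quoted, the chi-square per gene, the sum of Gpx4 with Gpx4-ps2 and the basis of the simulated data. They also gave the limma-voom alternative and an alternative filter on reads, and the main test did not use them. No counting interval is given for TPM, and the number of replicates limits the precision. The main test was limma 3.58.1 (R 4.3.3), lmFit and eBayes with a trend, on log2(TPM + 0.5), mean TPM at least 0.5, without a block, and p-values were adjusted after Benjamini and Hochberg. It was also run on simulated libraries, with the same spread in every library and larger changes than most of those given here. Those do not cover an outlying library such as control replicate 1 or small changes. Single values had an exact two-sided permutation test over 20 arrangements. Near-identical copies were sought with BLAST+ 2.17.0 at 90% identity over 200 bases or more.

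The members and lists were chosen with earlier results of these data known, so lists are described by counts and medians. Named were the members, Ncoa4, genes of each list with an adjusted p under 0.05 (or the 2 smallest), selenoproteins of at least 100 TPM, and the 3 genes nearest in pattern to 2 members. A result that this rule selects is not reported here. Other names (Slc7a11, Eefsec, Secisbp2, Lrp8, Gpx4-ps2 and overlapping genes) were chosen after their values were seen. Alternatives numbered 17, with 2 more chosen after seeing the data. Same-numbered replicates did not deviate together, with correlations of 0.028, -0.019 and 0.023.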

Additional observations from a re-analysis of the deposited data

How the results depend on the processing

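Of the 10 members, 1 had an adjusted p under 0.05, and 2 did after median centring, after quantile normalization or without mitochondrial genes, and 4 with limma-voom. With single libraries left out the number was 1 to 3, and it was 3 without control replicate 1. Of the selenoproteins 2 passed, against 6 with limma-voom, 1 with the replicate number as a block and 1 to 4 with a library left out. Over all genes 750 passed, against 499 without the filter, 404 without a trend, 1485 with limma-voom, 161 with the block and 127 to 807 with a library left out. With the fold threshold 163 passed, against 87 with the block and 77 to 172 with a library left out. Under the block, for which the numbers share no stated origin, Selenon, Sars, Agpat3 and Por lost their call, at adjusted p of 0.0704, 0.121, 0.148 and 0.0725 by limma, while Selenop, Ncoa4 and Chac1 kept theirs. The log2 fold change of Aifm2 turned to -0.0557 after median centring, -0.0443 after quantile normalization and -0.012 without mitochondrial genes, and lay between -0.1155 and 0.0885 with a library left out. That of Dhodh turned to -0.0351 and -0.0227 under the first 2 of these and lay between -0.0235 and 0.0695 with a library left out. No other member changed sign in any alternative. The cause of these differences was not tested. Depth limited the genes with few reads most, and each member rested on at least 369 reads in every library.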
